A study of Mus musculus with 3 samples.

Results

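Id genes, BMP ligands, a BMP receptor, inhibitory Smads and the BMP-binding antagonist follistatin were followed across mouse cells sorted by a motor neuron reporter. The 10 genes were listed by symbol: Bmp4, Bmp7, Fst, Bmpr1a, Smad6, Smad7, Id1, Id2, Id3 and Id4. Of these, 9 genes had a probe in the platform annotation, through 12 of the array's 25697 probes, and Smad7 is not analysed here. The arrays named 16593 genes in all. The cells were Hb9-GFP mouse embryonic stem cells, in which green fluorescent protein (GFP) reports activity of the Hb9 promoter, that of the motor neuron factor gene Mnx1. They had been kept on feeder cells with serum, and motor neurons were then made from embryoid bodies given retinoic acid plus the Hedgehog agonist purmorphamine, so every group carries the reporter and both agents. The groups were GFP high cells, called motor neurons in the labels, GFP low cells and GFP negative cells. Each group had 1 Illumina bead array and no replicate, and the labels do not say how many cultures or sorts lay behind it.

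Bone morphogenetic proteins (BMPs) are secreted ligands that bind paired type I and type II receptors, and the type I receptor then phosphorylates Smad1, Smad5 or Smad9, which enter the nucleus with Smad4. Typical targets are the Id genes, whose products lack a DNA-binding region and hold E proteins away from proneural partners, and Smad6 and Smad7, which feed back to block the pathway. In the developing spinal cord BMPs come from the roof plate and pattern the dorsal side, while antagonists such as noggin, chordin and follistatin bind the ligands outside the cell. Id proteins are known for keeping neural progenitors from differentiating.

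Promoter sequence is shown for Id2, Id3 and Id4 because Id genes are direct targets of the pathway and because their signals did not move alike across the gates. No window is shown for Id1, the Id gene with the largest difference. Each sequence is the 250 bases before the RefSeq start site on build GRCm38.p6, 5′ to 3′ on the gene's strand. The windows are chr12:25096093-25096342 (minus strand) for Id2, chr4:136143572-136143821 (plus) for Id3 and chr13:48260866-48261115 (plus) for Id4. Capitals mark GGCGCC, a palindromic motif bound by BMP-activated Smads, and CAGAC or its reverse complement GTCTG, the Smad box.
Id2: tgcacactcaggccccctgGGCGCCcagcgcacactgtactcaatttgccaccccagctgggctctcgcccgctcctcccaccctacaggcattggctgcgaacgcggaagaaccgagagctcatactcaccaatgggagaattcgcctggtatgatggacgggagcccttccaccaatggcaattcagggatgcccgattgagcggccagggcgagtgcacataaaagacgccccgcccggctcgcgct
Id3: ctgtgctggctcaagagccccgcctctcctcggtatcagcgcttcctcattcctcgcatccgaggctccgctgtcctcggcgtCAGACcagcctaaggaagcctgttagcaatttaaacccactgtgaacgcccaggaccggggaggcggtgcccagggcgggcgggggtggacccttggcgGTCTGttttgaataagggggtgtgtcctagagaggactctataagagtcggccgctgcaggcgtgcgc
Id4: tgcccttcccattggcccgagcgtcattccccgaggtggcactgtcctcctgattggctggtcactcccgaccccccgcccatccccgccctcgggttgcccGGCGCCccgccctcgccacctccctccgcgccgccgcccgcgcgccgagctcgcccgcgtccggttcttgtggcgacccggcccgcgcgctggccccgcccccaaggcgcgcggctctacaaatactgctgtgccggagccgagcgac

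Both motifs were searched on both strands; they can share a base, and did not in these windows. GGCGCC began 231 bases before the start of Id2 and 148 before that of Id4, and it also stood once in the window of Bmpr1a, 198 bases before the start. Id3 held CAGAC 167 bases and GTCTG 68 bases before its start. Of the 32851 start-site windows of this length in the RefSeq table, 9.59% held GGCGCC and 42.2% held CAGAC. The windows of Bmp4 and Smad6 held neither motif. A match describes letters and is not a binding site, and windows were found for 6 of the 10 genes.

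On the arrays, a probe counted as detected where its detection p-value was under 0.01, the p-value being the authors' comparison with control probes of the same array. All values below are normalized log2 signals unless stated otherwise, and a difference was called at 2-fold or more among genes detected on either array of a pair. With 1 array per gate no difference could be tested and no p-value is given. To gauge technical spread, the pair of brightest detected probes was compared in 2370 genes. The resulting between-probe SD of the log2 difference was 0.33 (GFP high minus GFP negative), 0.26 (GFP high minus GFP low) and 0.29 (GFP low minus GFP negative). It reflects the choice of probe and leaves out whatever all probes of an array share. The comparisons use the same 3 arrays, so they are not independent of each other.

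The arrays were alike in brightness, with 11689 to 11736 probes detected and median intensities of 105 to 110. Mnx1 had a signal of 7.99 for GFP high, 5.30 for GFP low and 5.16 for GFP negative cells. All 9 motor neuron markers stood 2-fold or more higher in GFP high relative to GFP negative cells, or 8 when bounds replaced undetected signals. Of the pan-neuronal markers 8 of 9 detected genes passed 2-fold in the same direction, while Tubb3, Nefl and Snap25 were undetected on all arrays.

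In GFP high compared with GFP negative cells, the antagonist gene Fst and the target gene Id1 were lower and Id2 and Bmp4 were somewhat higher, while Id4 was nearly level. Fst was at least 3.24-fold lower and Id1 was 2.66-fold lower, and these were the only 2 of the 9 genes past 2-fold. The Fst bound holds for the normalization used here: its plain log2 difference of -2.54 was -1.46 when the offset added to every signal was 50 in place of 16, and -1.10 without background correction. No gene of the 9 was called higher. In GFP high minus GFP low cells 0 of 9 were called higher as well, against 1.10% of all genes. Over all 8613 genes compared between GFP high and GFP negative cells, 9.88% were called lower and 6.98% higher. The median log2 difference was -0.03 over the 9 genes and 0.02 over all genes. The genes therefore did not move as a block, as the plot of signals by gate shows.

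**Figure D1:**
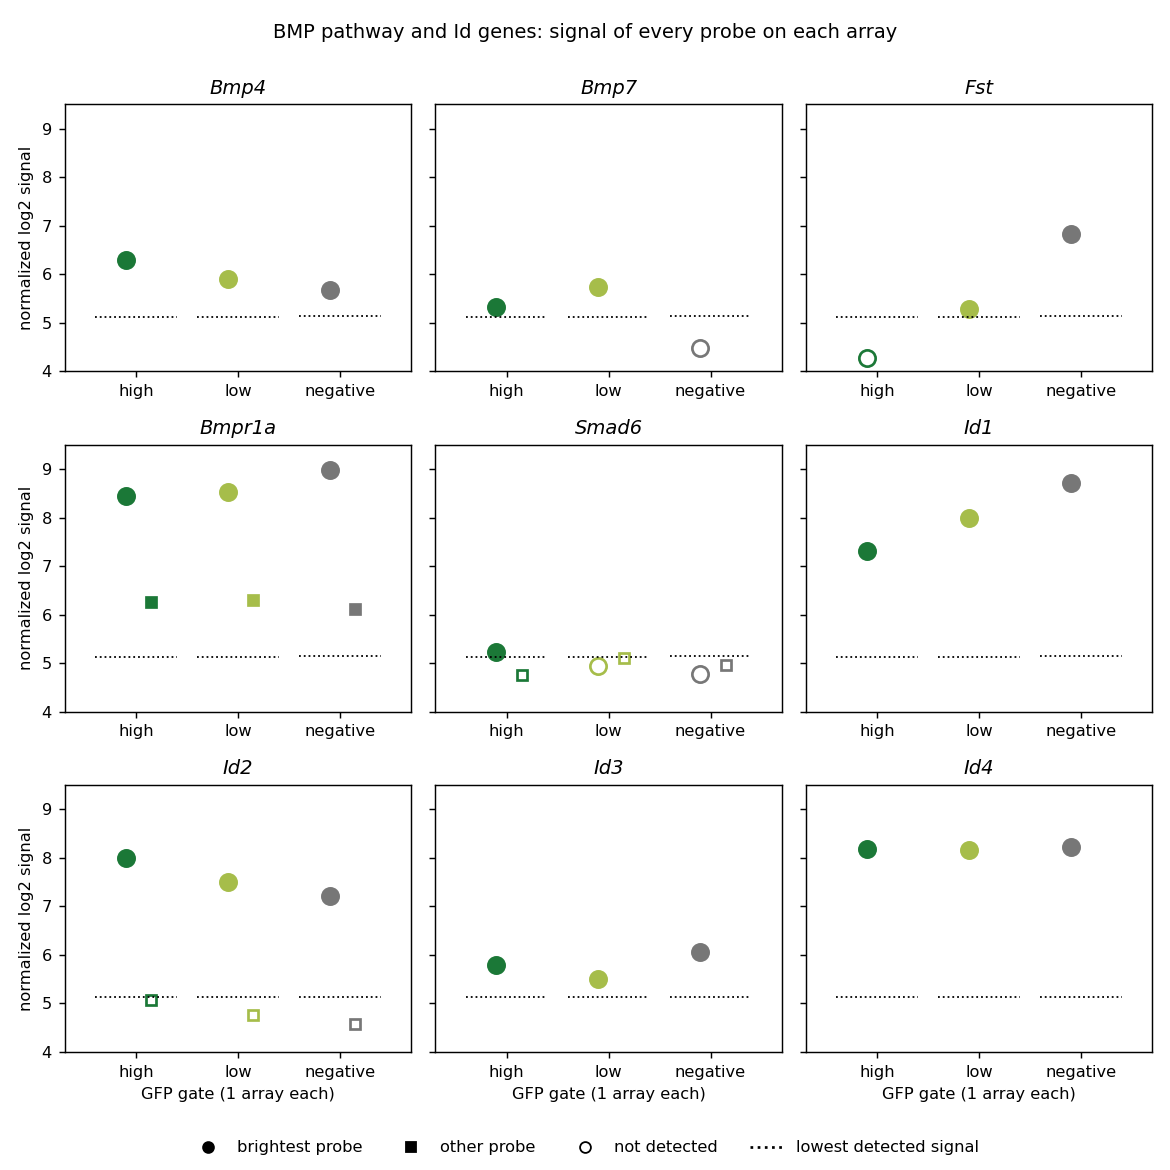
Normalized log2 signal (y axis) of every probe of the 9 genes on the GFP high, GFP low and GFP negative arrays (x axis, 1 array each). Circles are a gene's brightest probe, squares other probes, open symbols probes not detected, and dotted lines the lowest signal of any detected probe. Id1 climbs from the GFP high to the GFP negative side (7.30, 7.98, 8.71), Id2 runs the other way (8.00, 7.50, 7.22), and Fst is undetected in GFP high cells.

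Among the ligands, Bmp4, a roof plate and ectodermal BMP, was dim but detected in every gate. Its intensity was 151 for GFP high, 144 for GFP low and 130 for GFP negative cells, where the fitted background was 93.4, 96.1 and 95.4 with an SD of 5.95, 6.54 and 5.96. After normalization the signals were 6.30 for GFP high, 5.90 for GFP low and 5.67 for GFP negative cells. The highest of them was that of the GFP high cells, by 1.54-fold over GFP negative and 1.32-fold over GFP low cells. These differences of 0.63 and 0.40 were 1.87 and 1.52 times the between-probe SD and did not reach 2-fold. With an offset of 50 they were 0.41 and 0.27. Without background correction they were 0.28 and 0.19, both within that SD.

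Bmp7, a second ligand that can pair with other BMPs as a heterodimer, was brightest in the GFP low gate. Its intensity was 116 for GFP high, 137 for GFP low and 98.4 for GFP negative cells, the last with a detection p-value of 0.267 and therefore not detected. In GFP high cells Bmp7 was barely detected, with a detection p-value of 0.0075. The signal in GFP low cells was at least 1.51-fold higher than in GFP negative cells. In GFP high cells it was at least 1.14-fold higher than in GFP negative cells and 1.32-fold lower than in GFP low cells. The plain log2 difference between GFP low and GFP negative cells was 1.26, past 2-fold, as for 3.37% of 8516 genes. With the undetected GFP negative signal raised to the lowest detected level it no longer passed.

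Fst encodes follistatin, which binds activins and several BMPs and keeps them from their receptors. Its intensity was 88.4 for GFP high, 122 for GFP low and 192 for GFP negative cells. It was not distinguishable from background in GFP high cells, with a detection p-value of 0.821, and stood 16.3 background SDs above the background mean in GFP negative cells. Of the 9 genes, Fst had the largest difference in the comparisons of GFP negative with either other gate. In GFP low cells it was 2.90-fold lower than in GFP negative cells, a log2 difference of -1.54 that was -1.01 with an offset of 50 and -0.70 without background correction, where the 2-fold call ended. A lower value than this was found for 0.528% of the 8516 genes compared, of which 2.68% were called lower. Between GFP high and GFP negative cells the log2 difference was -2.54, and 0.766% of genes had a lower one. Between GFP high and GFP low cells Fst was at least 1.12-fold lower. The plain log2 difference there of -1.01 passed 2-fold, as for 4.17% of 8427 genes, and did not pass with the undetected signal at its bound.

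Bmpr1a, a type I BMP receptor, was bright and detected by both of its probes on all arrays. The brighter probe read 8.44 for GFP high, 8.53 for GFP low and 8.99 for GFP negative cells, so GFP high cells were 1.46-fold lower than GFP negative cells. The second probe read 6.26 for GFP high, 6.31 for GFP low and 6.12 for GFP negative cells, which is a small difference in the other direction, 0.15 on the log2 scale. The probes thus gave opposite signs for GFP high against GFP negative cells, and the mean of both differed by -0.20. No direction of Bmpr1a can be given from this array.

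Smad6, an inhibitory Smad induced by BMP signalling, lay at the edge of detection. Its brighter probe was detected in GFP high cells alone, at an intensity of 114, against 112 for GFP low and 106 for GFP negative cells. The other probe was detected on no array and read 103 for GFP high, 116 for GFP low and 111 for GFP negative cells. With the bounds applied, the brighter probe was at least 1.07-fold higher in GFP high relative to GFP negative cells, and the dimmer probe ran the other way. These signals do not show a difference at this brightness.

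The 4 Id genes were all detected in every gate, and Id1 and Id2 ran in opposite directions. Id1, the member most used as a readout of BMP signalling, had intensities of 226 for GFP high, 350 for GFP low and 503 for GFP negative cells. The signals after normalization were 7.30 for GFP high, 7.98 for GFP low and 8.71 for GFP negative cells. Each gate was apart from its neighbour by a similar step, -0.68 for GFP high minus GFP low and -0.73 for GFP low minus GFP negative. These steps, 1.61-fold and 1.66-fold, were 2.60 and 2.51 times the between-probe SD, and neither reached 2-fold. The whole span between GFP high and GFP negative cells, -1.41, was 4.21 times that SD, and 5.36% of genes had a lower difference. Id1 was read by a single probe.

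Id2, which is expressed in some differentiating neurons as well as in progenitors, ran opposite to Id1. Its brighter probe had intensities of 321 for GFP high, 273 for GFP low and 229 for GFP negative cells. The normalized signals were 8.00 for GFP high, 7.50 for GFP low and 7.22 for GFP negative cells. GFP high cells were thus 1.72-fold higher than GFP negative cells, 2.33 times the between-probe SD and under 2-fold, and 11.6% of genes had a higher difference. Id2 was 1.42-fold higher in GFP high relative to GFP low cells, and 1.21-fold higher in GFP low relative to GFP negative cells, the last within the between-probe SD. A second Id2 probe was not detected on any array.

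Id3, often induced together with Id1, was dim, with intensities of 130 for GFP high, 128 for GFP low and 145 for GFP negative cells. The log2 signals were 5.80 for GFP high, 5.50 for GFP low and 6.05 for GFP negative cells. Its lowest signal lay in the GFP low gate, but by little. The log2 difference of GFP high minus GFP low cells was 0.30, and 0.12 without background correction, against a between-probe SD of 0.26. The order of these 2 gates is therefore uncertain for Id3. The difference between GFP high and GFP negative cells, -0.25, was within the between-probe SD of 0.33, and GFP low cells were 1.47-fold lower than GFP negative cells.

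Id4, an Id gene of neural progenitors and the glial lineage, was nearly level. Its signals were 8.19 for GFP high, 8.17 for GFP low and 8.22 for GFP negative cells. All 3 differences were between -0.05 and 0.02 on the log2 scale, far inside the between-probe SD. Without replicates this does not show that Id4 is equal in the gates.

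**Figure D2:**
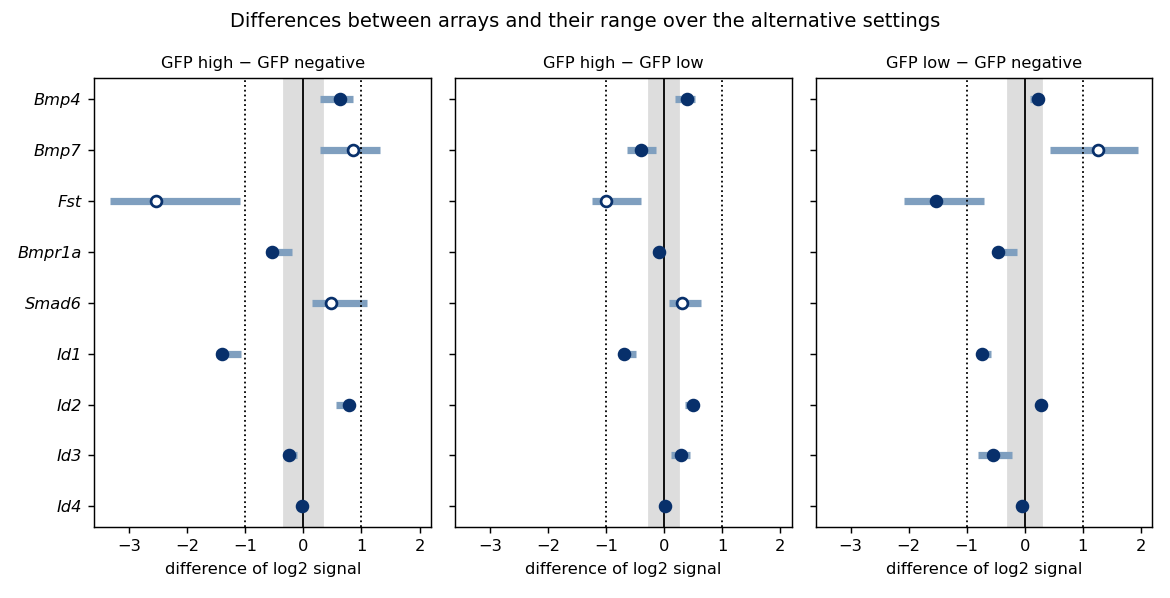
Difference of normalized log2 signal (x axis) for the 9 genes in GFP high minus GFP negative, GFP high minus GFP low and GFP low minus GFP negative cells. Points are the brightest probe, open where it was detected on 1 of the 2 arrays; bars span the alternative settings, the grey band is 1 between-probe SD and dotted lines mark 2-fold. Fst (-2.54) and Id1 (-1.41) pass 2-fold in the first panel; Id4 sits on 0 in all of them.

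The genes most like each Id gene were found by the Euclidean distance between log2 signals centred on each gene's mean over the 3 arrays, among 7463 genes detected on all of them. For Id1 these were Lrp4, Fhdc1 and Rdm1, at distances of 0.0145, 0.0205 and 0.0219. For Id2 they were Serping1, Unc45a and Tdrp, and for Id3 they were Wars, Txnrd2 and Dll1. Id4 was nearest to Paip2b, Fnip1 and Rbm3. With 3 arrays many genes lie close: 33 genes were within 0.1 of Id1 and 581 within 0.1 of Id4.

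Beyond these genes, 78 other pathway genes were listed by role, 71 had a probe, and 30 were detected in GFP high or GFP negative cells. Of those 30, 3 passed 2-fold upward in GFP high cells and 4 downward, or 3 downward when bounds replaced undetected signals. That is 3 of 30 against 6.98% of all genes and 4 of 30 against 9.88%. Their median log2 difference was -0.01. Few of the other ligand genes were detected. Of 17 BMP, GDF and activin-family ligand genes with a probe, 16 were not detected on any array, among them Bmp2, Bmp6 and the roof plate ligand gene Gdf7. Bmp5 was detected in GFP low cells alone. A probe that is not detected does not show that its gene is silent.

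In GFP high minus GFP negative cells the secreted antagonists and modulators held most of the 2-fold calls among these other pathway genes, in both directions. Of 8 detected, 3 were called higher and 2 lower, against 6.98% and 9.88% of all genes. The 3 higher were Chrd and the follistatin-like genes Fstl4 and Fstl5. Whether the products of Fstl4 and Fstl5 act on BMPs was not examined, so the count is not one of BMP antagonists. Chrd, which encodes the BMP antagonist chordin, had signals of 9.20 for GFP high, 7.72 for GFP low and 7.46 for GFP negative cells. It stood 3.34-fold higher in GFP high relative to GFP negative cells and 2.77-fold above GFP low cells, while GFP low and GFP negative cells were 1.20-fold apart. Chordin and follistatin, both ligand-binding antagonists, therefore differed in opposite directions. Nog, which encodes noggin, was dimmer, with 5.87 for GFP high, 6.44 for GFP low and 6.21 for GFP negative cells and no 2-fold difference.

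Among follistatin-like genes, Fstl4 was 5.48-fold higher in GFP high relative to GFP negative cells, with signals of 7.98 for GFP high, 6.77 for GFP low and 5.53 for GFP negative cells. In GFP high cells Fstl5 was higher by at least 2.50-fold; it was not detected in GFP negative cells. The opposite held for Fstl1, a secreted glycoprotein of the same family, which was 2.29-fold lower in GFP high relative to GFP negative cells and 2.03-fold lower than in GFP low cells. Bmper, which encodes an extracellular BMP regulator, was lower by at least 2.13-fold in GFP high relative to GFP negative cells. So, relative to GFP negative cells, Fst, Fstl1 and Bmper were lower and Chrd, Fstl4 and Fstl5 higher in the GFP high gate. Without background correction the calls of Chrd (1.39) and Fstl4 (1.41) stayed past 2-fold, and those of Fstl5 (0.62), Fstl1 (-0.98) and Bmper (-0.59) ended. With an offset of 50 Fstl5 (0.93) and Bmper (-0.89) also fell short of 2-fold, as did Fstl1 in GFP high minus GFP low cells (-0.93).

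Receptors and Smads differed less. Acvr1, Acvr2a and Acvr2b, which are type I and type II receptors, ranged from -0.01 to 0.28 in GFP high minus GFP negative cells. The co-receptor genes Rgma and Rgmb differed more there, by -0.36 and 0.66, and Rgmb by 0.82 in GFP low minus GFP negative cells. A second Rgmb probe, undetected in GFP negative cells, gave plain differences of 0.89 and 1.06 for the same comparisons, the last past 2-fold. Bmpr1b, the type I receptor closest to Bmpr1a, was detected in GFP negative cells alone, by 2 of its 4 probes, and its brightest probe was lower in GFP high cells by at least 1.59-fold. The other 2 probes were detected on no array. Smad4, the common partner, had a log2 difference of 0.02, and Smad1, a BMP Smad, of 0.11. Smad2, which carries activin and TGF-β signals, differed by 0.0083. The probes of Smad5 disagreed, with differences of -0.42, -0.85 and 0.97, so its direction is uncertain. Smad3, of the same branch as Smad2, was 2.21-fold lower in GFP high cells, a log2 difference of -1.15 that was -0.97 with an offset of 50 and -0.81 without background correction. Smad9 and Bmpr2 were not detected on any array.

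Of the 5 detected intracellular regulators, 0 passed 2-fold in any comparison. Over all genes 6.98% were called higher and 9.88% lower in GFP high minus GFP negative cells. In the other comparisons the shares were 1.10% to 4.17%, so a count of 0 among 5 genes lies near the shares over all genes. Of the 4 detected genes among the other BMP targets, Msx1 and Gata3 were highest in the GFP low gate. Msx1, a homeobox gene of dorsal neural tissue, had signals of 7.76 for GFP high, 9.35 for GFP low and 8.02 for GFP negative cells. It was 3.01-fold lower in GFP high relative to GFP low cells and 2.51-fold higher in GFP low relative to GFP negative cells. Gata3, which also acts in V2b interneurons, stood 4.13-fold lower in GFP high relative to GFP low cells and 2.71-fold higher in GFP low relative to GFP negative cells. These were 2 of 4 lower in GFP high relative to GFP low cells, against 4.17% of all genes. They were also 2 of 4 higher in GFP low relative to GFP negative cells, against 3.37%. The counts hold the same 2 genes and share the GFP low array, so they are not separate observations. The list was made with earlier results of these data known, so the shares are not a test of it. Msx1 and Gata3 passed 2-fold in these comparisons under each setting tried, and neither passed it between GFP high and GFP negative cells. The remaining detected targets passed 2-fold in neither comparison. Hey1 had signals of 10.16 for GFP high, 10.49 for GFP low and 10.80 for GFP negative cells. Dlx3 had 5.53, 6.17 and 6.12 for the same gates, also highest in GFP low cells but only 0.05 above GFP negative cells. Id1 and Id3 were not highest in GFP low cells. Of the 3 listed E protein genes, whose products Id proteins bind, Tcf3 had no probe in the platform annotation. Tcf4 and Tcf12 differed between GFP high and GFP negative cells by -0.16 and -0.0035 on the log2 scale. For Tcf12 this is the brightest probe. A dimmer Tcf12 probe, undetected in GFP high cells, had a plain difference of -0.84, so the probes did not give the same size.

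**Figure D3:**
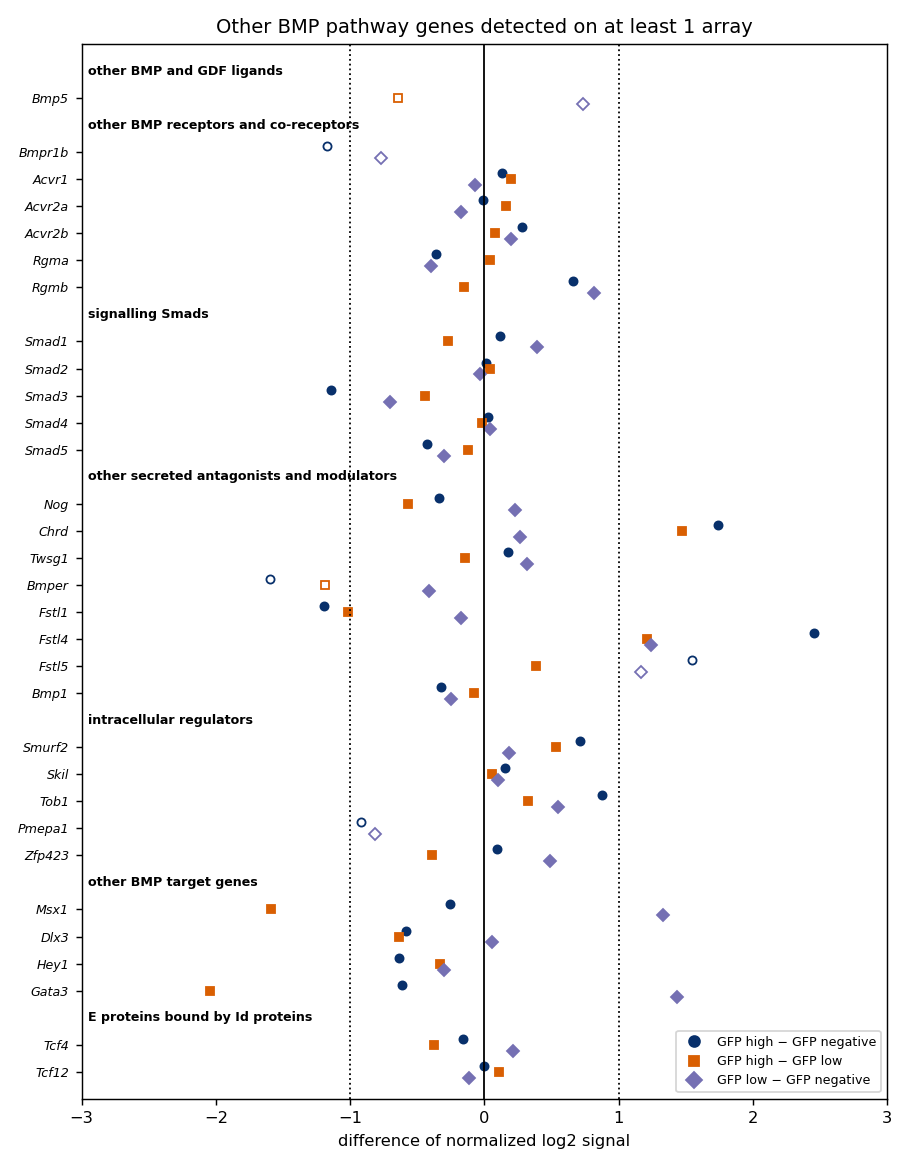
Difference of normalized log2 signal (x axis) for the other pathway genes detected on at least 1 array, by role, in the 3 comparisons (marker shape and colour); open markers were detected on 1 of the 2 arrays and dotted lines mark 2-fold. Fstl4 (2.45) and Chrd (1.74) lie farthest to the right for GFP high minus GFP negative, and Gata3 (-2.05) and Msx1 (-1.59) farthest to the left for GFP high minus GFP low.

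Markers of several other cell types moved with the same gates, and their part in the Id1 and Fst differences was not tested. In bulk samples fewer cells of a type and less RNA per cell cannot be told apart. Summed intensity above background over 13 neural progenitor genes was 4392 for GFP high, 9512 for GFP low and 16251 for GFP negative cells. Of the 11 detected, 9 passed 2-fold downward in GFP high relative to GFP negative cells, 8 with bounds, and Sox1 and Pax6 were not detected on any array. Over 9 cell cycle genes the sums were 2386 for GFP high, 8040 for GFP low and 13009 for GFP negative cells. All 7 detected cell cycle genes were 2-fold or more lower in GFP high relative to GFP negative cells. Over all genes 9.88% were called lower in that comparison. Hes5 and Slc1a3, genes of radial glia, were 8.32-fold and 9.45-fold lower.

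Most non-neural marker lists were highest in the GFP negative gate. Pluripotent genes were not, with sums of 305 for GFP high, 303 for GFP low and 247 for GFP negative cells. Extraembryonic endoderm genes summed to 581 for GFP high, 1249 for GFP low and 7130 for GFP negative cells. Of 10 detected, 8 were 2-fold or more lower in GFP high relative to GFP negative cells, against 9.88% of all genes. Among them Col4a1 was 33.0-fold lower and Dab2 at least 12.6-fold lower, while Gata4, Afp, Foxa2 and Lamb1 were not detected on any array. Fibroblast, feeder and mesenchyme genes summed to 230 for GFP high, 697 for GFP low and 3052 for GFP negative cells. Sparc, which is in this list and in the extraembryonic endoderm list, supplied 54.0 for GFP high, 244 for GFP low and 1922 for GFP negative cells to each sum, so the 2 sums are not separate measurements. Of 14 with a probe, 5 were detected and all 5 were lower in GFP high relative to GFP negative cells, while the defining genes Col1a1, Col1a2, Col3a1, Dcn and Pdgfrb were not detected on any array. Endothelial and blood genes summed to 56.9 for GFP high, 89.4 for GFP low and 1154 for GFP negative cells, with Pecam1, Kdr and Cdh5 undetected on all arrays. For roof plate and dorsal progenitors, the sum was 217 for GFP high, 749 for GFP low and 267 for GFP negative cells. Msx1, by the same probe given above as a BMP target, supplied 188 of it for GFP high, 675 for GFP low and 242 for GFP negative cells, so the sum is largely that of 1 gene. Olig3 was detected in GFP low and Wnt3a in GFP high cells alone, and Lmx1a, Gdf7, Wnt1, Atoh1, Pax3 and Zic1 were undetected on all arrays.

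**Figure D4:**
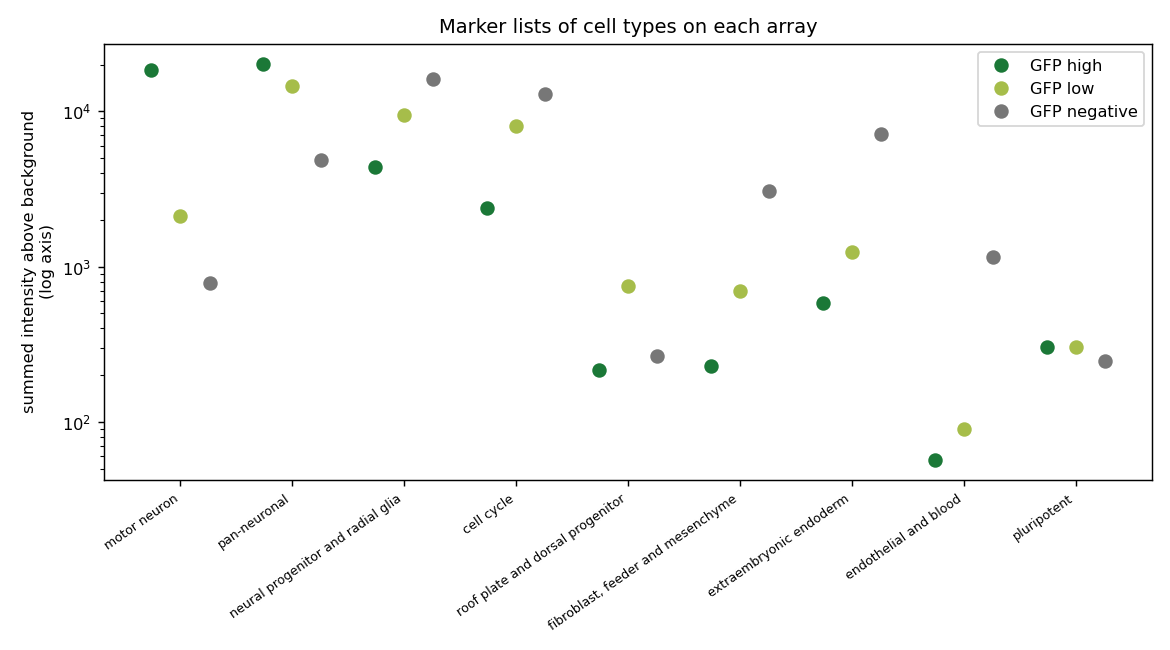
Summed intensity above background (y axis, log scale) of each marker list on the GFP high, GFP low and GFP negative arrays, 1 point per array. Neural progenitor, cell cycle, extraembryonic endoderm, fibroblast, and endothelial and blood lists are highest in GFP negative cells, as Id1 and Fst are. The pluripotent list is not, at 305 for GFP high, 303 for GFP low and 247 for GFP negative cells. The roof plate list is highest in GFP low cells, at 749, of which Msx1 alone supplies 675.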

How the data were processed

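Non-normalized linear intensities were deposited by the authors, and each is followed by its detection p-value column, per the file headers. GenomeStudio is named per the submitters' processing notes, without a version. A second deposited table holds intensity values with a floor of 10, with no statement in these sources of its background subtraction or between-array normalization. Medians of that table were 12.6, 12.5 and 12.5 for GFP high, low and negative. Its columns followed their own arrays with r of 0.994, 0.991 and 0.994 over 5310 probes, which settled scale and direction. No genome build of the arrays is given, so probes have no coordinates here.

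Intensities were background-corrected with normexp (background read from the detection p-values, offset 16), quantile normalized and log2 transformed in limma 3.58.1 (R 4.3.3). The offset understates folds of dim genes. The procedure was tested on simulated data in which only brighter signals were changed, so folds of dim genes were not tested there. Tables and figures used Python 3.11.15, pandas 2.3.3 and matplotlib 3.10.9. Symbols came from the platform annotation (23978 probes with 1 symbol, 0 with several, 1719 none listed), and 23962 were matched by gene ID. The probe with the highest mean over the arrays stood for a gene. A fold written "at least" has an undetected dimmer side, taken as the higher of its own signal and the lowest detected signal of that array (5.13, 5.13 and 5.14 for GFP high, low and negative). Named pathway genes were those past 2-fold in any comparison, with signalling Smads and E proteins whatever their values. Noggin, Hey1, Dlx3, the markers Olig3 and Wnt3a, the ligands, and the receptors and co-receptors other than Bmpr1b were named after their values were seen. Motifs and promoter windows were also chosen after the files were read. The member genes and lists were chosen with earlier results of these data known. With 1 array per group, precision is limited by the number of arrays and no test was run.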

Additional observations from a re-analysis of the deposited data

How the results depend on the processing

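The settings tried were an offset of 50, no background correction, median scaling, the authors' deposited value table, the mean of detected probes, detection p-values under 0.05, detection required on both arrays, and no detection filter. Of 202 recomputed differences of the 9 genes, 181 moved by less than the between-probe SD, 21 by more, and 1 changed sign (Id4, GFP high minus GFP low, -0.06 under median scaling). The detection settings only choose which genes are kept, so their values could not move. Taking the mean of detected probes altered Bmpr1a alone. The 181 includes all these unchanged values and is not a measure of stability. In GFP high minus GFP negative cells Id1 ranged from -1.50 to -1.07 and Fst from -3.33 to -1.10, past 2-fold under every setting that kept them; Fst had no value with detection on both arrays, which left 1 gene of the 9 called lower. The value table called 2 genes higher there, Bmp7 and Smad6, both against values at or near its floor. In GFP high minus GFP low cells the 1 gene called lower became 0 with an offset of 50, without background correction and with detection on both arrays. In GFP low minus GFP negative cells the 1 gene called higher, Bmp7, became 0 under the same 3 settings, and the 1 called lower, Fst, became 0 without background correction, at -0.70.

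Among the other pathway genes, the 4 called lower in GFP high minus GFP negative cells became 1 with an offset of 50, 0 without background correction and 2 with detection on both arrays. In GFP high minus GFP low cells the 2 called higher became 1 without background correction, and the 4 called lower became 2 both there and with an offset of 50. In GFP low minus GFP negative cells the 4 called higher became 2 under those 2 settings, and the 0 called lower became 2 in the value table. The cause of these changes was not tested, other than that requiring detection on both arrays leaves fewer genes. No paired analysis was possible because each gate has 1 array. Brightness limits Fst in GFP high, Bmp7 in GFP negative and Smad6 in GFP low and GFP negative cells, which were not detected. It also limits Bmp7 and Smad6 in GFP high cells, which were barely detected.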
